A study of Mus musculus with 5 samples.

Results

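The regions described here are the places in adult mouse heart where Gata4 was listed on the same stretch of DNA as Nkx2-5 while no Tbx3 region touched the Gata4 region. They were chosen by position from the Gata4 list, as the regions that overlapped an Nkx2-5 region by at least 1 bp and overlapped no Tbx3 region, on chromosomes 1 to 19. This gave 381 regions, out of 1742 Gata4 regions on these chromosomes and 1756 in all (382 before the chromosome filter). The 3 lists came from chromatin immunoprecipitation followed by sequencing (ChIP-seq), which recovers DNA bound by a protein with an antibody and reads it, with 1 library per factor. Gata4 and Nkx2-5 were profiled in wildtype hearts. Tbx3 was profiled in hearts of the genotype Myh6-MCM;CAG-CAT-TBX3, which carry a TBX3 transgene, and every heart was adult and of FVB/N background. Myh6 encodes a myosin of heart muscle, and its promoter is active in cardiomyocytes. The Tbx3 list therefore describes transgenic hearts, and genotype and factor cannot be told apart in any statement on Tbx3. The sources used here do not give the number of animals pooled or the read depth. The control library (the Tbx3 antibody in Myh6-MCM hearts) and the p300 library were not analysed here.

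Gata4 is a zinc-finger transcription factor that recognises GATA sequences, and Nkx2-5 is a homeodomain factor. Both are made in cardiomyocytes, bind each other and activate genes of contraction and of the natriuretic peptides. Tbx3, a T-box factor, represses genes of the working muscle in the conduction system. The deposited lists hold positions alone, without a height, fold or p-value, so the width of a region is the measure available besides its position. The whole tissue was used, so the cell type in which a region was bound is not known, and 2 factors on the same DNA need not have been there in the same cell. Positions below are in mm9, counted from 1. Genes at these places are not named and no sequence is shown, because the gene and promoter tables used here are of another build, GRCm38. With 1 library per factor no difference below has a replicate check, and none was tested. The 95% intervals cover counting error only, and regions are not replicates.

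The 381 regions made up 21.9% of the Gata4 list on chromosomes 1 to 19 (exact Clopper-Pearson 95% interval 20 to 23.9%). As this overlap chose them, it is a description. A further 201 Gata4 regions (11.5%) overlapped both Nkx2-5 and Tbx3, 168 (9.64%) overlapped Tbx3 only and 992 (56.9%) overlapped neither. From the Nkx2-5 side the match was a small part of the list. Of 6619 Nkx2-5 regions on these chromosomes, 378 (5.71%, interval 5.16 to 6.30%) were the partner of such a Gata4 region, where the partner is the Nkx2-5 region with the longest overlap. Overlap with any Gata4 region was found for 8.75% of the Nkx2-5 list. Pairing was nearly one to one. Only 3 of the 381 Gata4 regions overlapped 2 Nkx2-5 regions.

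The share of Gata4 regions that were held with Nkx2-5 and without Tbx3 varied between chromosomes. Chromosome 15 had the highest share, with 30 of its 70 Gata4 regions (42.9%, exact interval 31.1 to 55.3%), and chromosome 19 followed with 20 of 60 (33.3%, 21.7 to 46.7%). Chromosome 6 had the lowest, 11 of 83 (13.3%, 6.81 to 22.5%). On chromosome 15 the classes with Tbx3 were few: 5 Gata4 regions overlapped both other factors and 2 overlapped Tbx3 only. The largest class there was the 33 that overlapped neither. The 30 regions of chromosome 15 did not form 1 cluster. They ran from 7.73 to 102.2 Mb with a median gap of 2.69 Mb, and the smallest gap between neighbours was 192.7 kb. On chromosome 19 the 20 regions lay closer, with a median gap of 0.404 Mb. Chromosome 15 was the only one of the 19 whose interval lay wholly above the overall 21.9%, and the interval of chromosome 19 began just below it. The 19 intervals were not adjusted for their number, and the overall share includes chromosome 15. Chromosome 3 held the largest number, 32 of 122 (26.2%, 18.7 to 35.0%). Relative to the Nkx2-5 list, chromosomes 3 and 15 were alike, with 10.5 and 10.1 such regions per 100 Nkx2-5 regions, whereas chromosome 6 had 3.68.

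**Figure D1:**
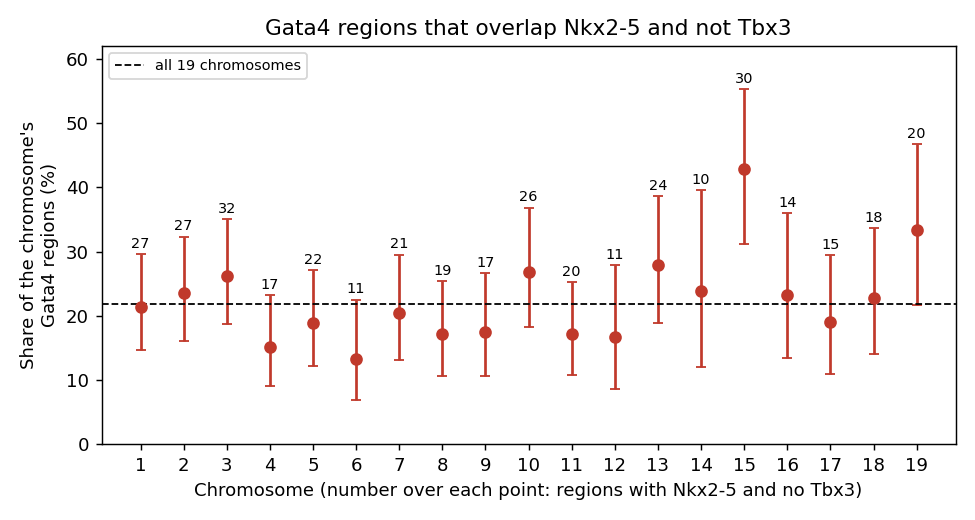
Share of each chromosome's Gata4 regions that overlapped Nkx2-5 and not Tbx3 (vertical axis, percent) by chromosome (horizontal axis); bars are exact 95% intervals, the number above each is the count of regions, and the dashed line is the share over all 19 chromosomes (21.9%). Chromosome 15 (42.9%) is the highest and its bar lies above the line, and chromosome 6 (13.3%) is the lowest.

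Where Gata4 and Nkx2-5 regions met without Tbx3, they lay nearly on top of each other. Their centres were a median of 42.0 bp apart (95% interval of the median 39.0 to 47.0 bp, interquartile range 21.5 to 77.0 bp), and 217 of the 381 pairs (57%) had centres within 50 bp. The overlap had a median of 115 bp and covered a median of 89.8% of the narrower region, and 330 pairs (86.6%) overlapped by at least 50% of it. In 134 pairs (35.2%) one region lay entirely inside the other: Gata4 inside Nkx2-5 in 64 and Nkx2-5 inside Gata4 in 70. The Nkx2-5 centre fell inside the Gata4 region in 291 pairs (76.4%), and the Gata4 centre fell inside the Nkx2-5 region in 308 (80.8%). By coordinate along the chromosome, both sides were almost equally frequent. The Nkx2-5 centre had the higher coordinate in 190 pairs (49.9%), and in 1 pair both centres were at the same position. The regions were not oriented by strand, sequence or gene, so this count cannot tell whether Gata4 and Nkx2-5 had a fixed arrangement. The overlap rule itself limits how far apart centres can be, so these distances describe the pairs and test nothing.

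The same geometry was measured in the 201 Gata4 regions that overlapped Nkx2-5 and Tbx3 together. There the Gata4 and Nkx2-5 centres were a median of 50 bp apart (43.0 to 59.5 bp), an interval that overlaps that of the pairs without Tbx3. One region lay inside the other in 80 of them (39.8%, 33.0 to 46.9%), against 35.2% (30.4 to 40.2%) without Tbx3. The intervals of both measures thus overlapped between pairs with and without Tbx3. For comparison, the 168 Gata4 regions with Tbx3 only had their Tbx3 centre a median of 68.5 bp away (50.5 to 77.5 bp).

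**Figure D2:**
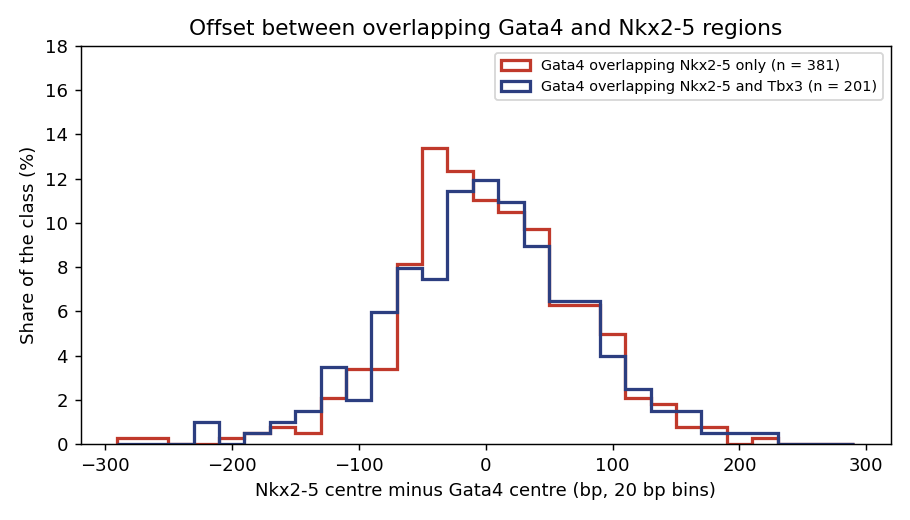
Position of the Nkx2-5 centre relative to the Gata4 centre (horizontal axis, bp, bins of 20 bp) as a share of each class (vertical axis, percent), for 381 pairs without Tbx3 and 201 with it; 4 of the 201 lie beyond 290 bp and are not drawn. Both outlines are highest within 50 bp of 0 and fall off on either side.

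Gata4 regions that coincided with Nkx2-5 had larger median widths than those that did not, with or without Tbx3. Median Gata4 width was 163 bp (95% interval 153 to 177 bp) with Nkx2-5 only and 176 bp (160 to 186 bp) with Nkx2-5 and Tbx3. It was 145.5 bp (131 to 160 bp) with Tbx3 only and 142 bp (139 to 146 bp) with neither, and 149 bp over the whole list. The intervals with Nkx2-5 only and with Tbx3 only overlapped. The narrowest Gata4 region of the 381 had 100 bp, which is also the narrowest of the list, and the widest 453 bp. Widths of 300 bp or more occurred in 24 of the 381 (6.30%, exact interval 4.08 to 9.23%), against 4.25% of all Gata4 regions. The share of all regions lies inside that interval.

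Seen from the Gata4 list, the share held with Nkx2-5 and without Tbx3 went up with width. The list was ranked by width and cut into 4 classes with nearly equal numbers of regions. The share was 16.7% in the narrowest class (100 to 120 bp), 20% and 21.4% in the next ones and 29.4% (25.1 to 33.9%) in the widest (198 bp and above). The share with both factors went from 8.26% to 17.9%, while the share with Tbx3 only was 10.8% in the narrowest and 9.40% in the widest class. When sharing was counted instead from centres within 500 bp, the Nkx2-5-only share went from 17.9% in the narrowest to 28.9% in the widest class, and the Tbx3-only share was 11.5% and 11.9%. This alternative was chosen after the data were seen. A wider region meets a 1 bp overlap more readily, so the rule itself bears on these shares and on the widths above. How far it does was not tested.

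The Nkx2-5 partners likewise had a larger median width than their list as a whole, and the same limit of the rule holds. Their median width was 173 bp (164 to 180 bp), against 142 bp over all Nkx2-5 regions and 133 bp (132 to 135 bp) for the 3859 Nkx2-5 regions that overlapped neither other list. Nkx2-5 regions that overlapped Tbx3 and not Gata4, 2181 in number, had a median of 155 bp (152 to 157 bp), and the partners of the Gata4 regions with both factors had 201 bp (187 to 219 bp). The Nkx2-5 list was cut by width rank into 4 classes in the same way. In the widest class 155 of 1655 regions (9.37%) were partners of the regions described here, and in the narrowest 63 (3.81%). The wider member of a pair was Gata4 in 166 of the 381 pairs and Nkx2-5 in the rest.

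Within a pair, the widths of Gata4 and Nkx2-5 were almost unrelated. Across the 381 pairs the Spearman correlation was 0.0375 and the Pearson correlation 0.0444, each across regions of the same 2 libraries. For the 201 regions with Tbx3 as well they were 0.275 and 0.644. After removal of regions before 3.1 Mb on a chromosome and of those within 10 kb of any region of 400 bp or more, the Spearman and Pearson values were 0.188 and 0.150 over 172 regions with Tbx3, and 0.0322 and 0.0427 over 358 without it.

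**Figure D3:**
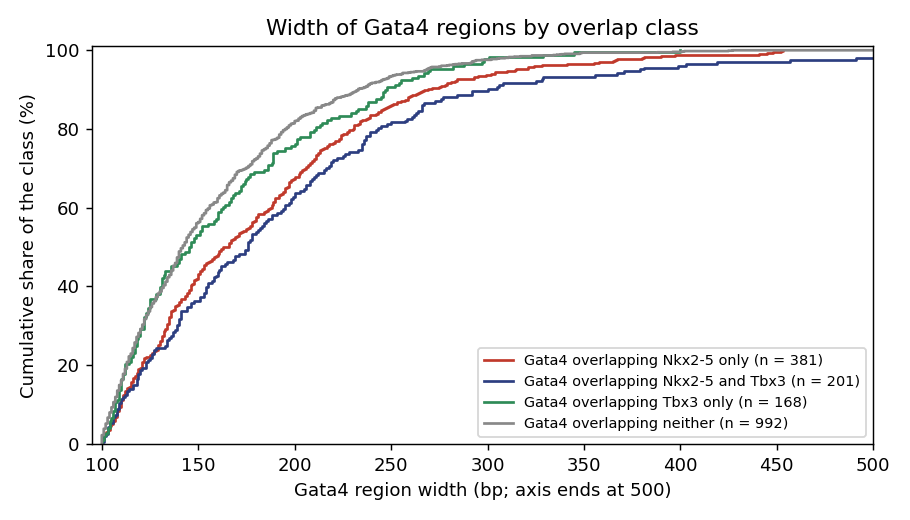
Cumulative share of each overlap class of Gata4 regions (vertical axis, percent) by region width (horizontal axis, bp); the axis ends at 500 bp, beyond which 4 regions with both factors and 1 with neither lie. The curves of the classes with Nkx2-5 (medians 163 and 176 bp) run to the right of those with Tbx3 only (145.5 bp) and with neither (142 bp).

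Absence of Tbx3 from the Gata4 region did not mean absence of Tbx3 from the neighbourhood. The nearest Tbx3 region was a median of 20.1 kb away (13.8 to 26.9 kb, interquartile range 2.89 to 97.2 kb). A Tbx3 region lay within 1 kb of 53 of the 381 regions (13.9%, against 12.4% of all Gata4 regions with a non-overlapping Tbx3 region that near). Within 10 kb the number was 159 (41.7%, exact interval 36.7 to 46.9%, against 36.3% of all) and within 50 kb it was 255 (66.9%, against 63.9%). The Gata4 regions that overlapped neither factor had their nearest Tbx3 region farther off, a median of 33.9 kb (28.6 to 39.9 kb), with 299 of 992 (30.1%, 27.3 to 33.1%) within 10 kb. The other classes were not lower than the 381: a further, non-overlapping Tbx3 region lay within 10 kb of 49.8% (42.6 to 56.9%) with both factors. With Tbx3 only the share was 44.6% (37.0 to 52.5%). At the other end, 94 of the 381 regions (24.7%, 20.4 to 29.3%) had no Tbx3 region within 100 kb, against 293 of the 992 with neither factor (29.5%, 26.7 to 32.5%). No Tbx3 region lay within 1 Mb of 6 of the 381 (1.57%, 0.580 to 3.40%), a share not given here for the other classes. The most remote was on chromosome 5 at 83814078 to 83814213, 2680.5 kb from a Tbx3 region. This and the other far regions are named for their values.

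**Figure D4:**
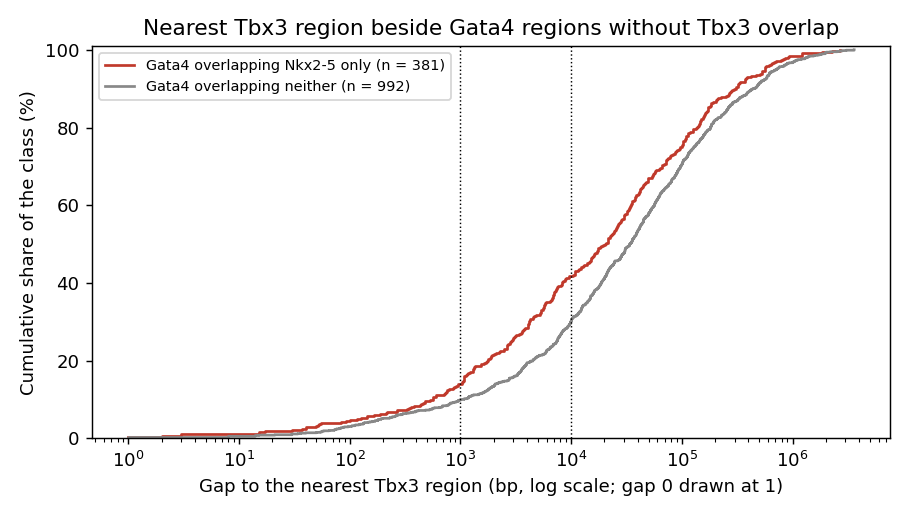
Cumulative share of Gata4 regions without Tbx3 overlap (vertical axis, percent) by gap to the nearest Tbx3 region (horizontal axis, bp, log scale), for the 381 with Nkx2-5 and the 992 without; dotted lines mark 1 and 10 kb. The curve of the regions with Nkx2-5 lies to the left, with 41.7% against 30.1% within 10 kb.

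Regions with a near Tbx3 neighbour and remote ones had overlapping intervals for width and for centre distance. Gata4 width had a median of 148 bp (133 to 176 bp) where Tbx3 lay within 1 kb and 170 bp (153 to 190 bp) where it lay over 50 kb away. The distance between Gata4 and Nkx2-5 centres was 44.0 bp (24.0 to 67.5 bp) and 42.2 bp (39.0 to 56.0 bp). The company of other regions varied more. Another, non-overlapping Nkx2-5 region lay within 10 kb of 29 of the 53 regions with Tbx3 within 1 kb (54.7%) and of 73 of the 106 with Tbx3 between 1 and 10 kb away (68.9%). It did so for 17 of 96 (17.7%) with Tbx3 between 10 and 50 kb away and for 15 of 126 (11.9%) with Tbx3 beyond 50 kb. For another Gata4 region within 10 kb the shares were 24.5%, 34.0%, 4.17% and 11.9% in the same order. Gata4 regions outside the set were not split in this way, so these shares are not known to be particular to the set. A Tbx3 neighbour and the Nkx2-5 centre lay on the same side of the Gata4 centre in 30 of the 53 cases within 1 kb (56.6%, 42.3 to 70.2%), an interval that includes equal shares of both sides.

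A small number of regions met the rule on Gata4 although Tbx3 touched their Nkx2-5 partner. The rule keeps Tbx3 off the Gata4 region, which limits how often Tbx3 can touch the partner. Such a touch was found for 12 of the 381 (3.15%, 1.64 to 5.44%). The pair with the best mean width rank in the Gata4 and Nkx2-5 lists was one of them: on chromosome 17, Gata4 at 10667072 to 10667386 and Nkx2-5 at 10666812 to 10667285, with a Tbx3 region at 10666896 to 10667069 that lay inside the Nkx2-5 region and ended 2 bp before Gata4. On chromosome 8, Nkx2-5 spanned 579 bp at 129260081 to 129260659 and held a Tbx3 region at 129260152 to 129260283, while Gata4 at 129260500 to 129260792 met only its far end. In 17 of the 381 regions (4.46%, 2.62 to 7.05%) the Tbx3 gap was at most 100 bp. The share this near is not given here for the other classes. The nearest was 1 bp, on chromosome 5, with Gata4 at 104058492 to 104058626 and Tbx3 at 104058628 to 104058735.

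The edges of the rule were as follows. Just inside, the shortest Nkx2-5 overlaps were 1 bp (chromosome 1, Gata4 at 77045892 to 77046167), 3 bp (chromosome 15, 44534791 to 44534898) and 5 bp (chromosome 10, 59544836 to 59545059), and the nearest Tbx3 gaps were 1, 2 and 3 bp. Just outside, the smallest Nkx2-5 gaps of Gata4 regions that overlapped neither factor were 1 bp (chromosome 12, 114376119 to 114376345), 8 bp (chromosome 4, 45484966 to 45485125) and 15 bp. Among the Gata4 regions with Tbx3 only, which also fail the rule on Tbx3, the smallest Nkx2-5 gap was 0.004 kb. The shortest Tbx3 overlaps that put a region in the class of all 3 factors were 7, 10 and 11 bp, the first on chromosome 17 with Gata4 at 65898266 to 65898374.

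Neighbours in the Gata4 and Nkx2-5 lists were counted in the same way. Another Gata4 region lay within 10 kb of 68 (17.8%, exact interval 14.1 to 22.1%), against 16.6% of all Gata4 regions. Another Nkx2-5 region, apart from those that overlapped, lay within 10 kb of 134 (35.2%, 30.4 to 40.2%), against 30.9% of all. The corresponding Nkx2-5 shares were 48.8% (41.7 to 55.9%) for the Gata4 regions with both factors and 24.9% (22.2 to 27.7%) for those with neither. For those with Tbx3 only it was 35.7% (28.5 to 43.5%), close to the 35.2% of the regions described here. Apart from the overlapping pair, 175 of the 381 (45.9%, 40.8 to 51.1%) had no region of any of the 3 lists within 10 kb, against 49.9% of all Gata4 regions. The share was 36.8% (30.1 to 43.9%) with both factors, 42.9% (35.3 to 50.7%) with Tbx3 only and 55.3% (52.2 to 58.5%) with neither.

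Of the 68 regions with another Gata4 region within 10 kb, 25 had another of the 381 that near, in 12 groups. The same count within the other classes is not given here, so whether this is many or few is not known. A group of 3 on chromosome 13 was the only one with more than 2. Its Gata4 regions lay at 12221501 to 12221651, 12224467 to 12224705 and 12225744 to 12225977, a span of 4.48 kb, and each had an Nkx2-5 region of its own (12221533 to 12221780, 12224456 to 12224690 and 12225742 to 12226107). The nearest Tbx3 region lay 4.05, 7.02 and 8.29 kb from them. In 3 of the groups of 2, both Gata4 regions overlapped the same Nkx2-5 region, so they count as 1 place for Nkx2-5. On chromosome 1, Gata4 at 60665861 to 60666016 and at 60666104 to 60666228 overlapped an Nkx2-5 region of 391 bp at 60665902 to 60666292. On chromosome 10, Gata4 at 17517027 to 17517134 and at 17517239 to 17517351 shared Nkx2-5 at 17517057 to 17517329, and on chromosome 19 a pair 63 bp apart shared Nkx2-5 at 40444885 to 40444997.

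The widest pairs, named by the mean of their width ranks in the Gata4 and Nkx2-5 lists after the removal given above, were spread over 8 chromosomes. First was chromosome 12, with Gata4 of 365 bp at 74882480 to 74882844 and Nkx2-5 of 390 bp at 74882562 to 74882951, which overlapped by 283 bp. It had 3 Tbx3 regions within 10 kb, the nearest 1328 bp away. Next came chromosome 10, with Gata4 of 321 bp at 52895860 to 52896180 and Nkx2-5 of 325 bp at 52895786 to 52896110. This pair stood alone: no other region of the 3 lists lay within 50 kb, and the nearest Tbx3 region was 420.4 kb away. After it came chromosome 11, where Gata4 of 284 bp at 45924074 to 45924357 lay entirely inside Nkx2-5 of 342 bp at 45924021 to 45924362, and a Tbx3 region ended 212 bp before Gata4.

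On chromosome 4, Gata4 at 114173660 to 114173912 also lay entirely inside Nkx2-5 (114173595 to 114173922), with the nearest Tbx3 region 41.1 kb away. The fifth pair was the last Gata4 region of the chromosome 13 group, likewise inside its Nkx2-5 region. Chromosome 15 gave the next pairs. At 25849697 to 25849955 the Gata4 region overlapped its Nkx2-5 region (25849806 to 25850123) by 150 bp and had 7 Tbx3 regions within 50 kb. At 68244401 to 68244631 the overlap was 206 bp (Nkx2-5 at 68244246 to 68244606) and 1 Tbx3 region lay within 50 kb. The surroundings of these wide pairs thus ranged from no Tbx3 region to 7 within 50 kb.

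The remaining 3 of the 10 were on chromosomes 5 and 8. On chromosome 5, Gata4 at 77559775 to 77559998 lay inside Nkx2-5 at 77559696 to 77560009, with Tbx3 6747 bp away. On chromosome 8, Gata4 at 129361469 to 129361688 overlapped Nkx2-5 at 129361320 to 129361637 by 169 bp, and Gata4 at 35016345 to 35016615 overlapped Nkx2-5 at 35016286 to 35016554 by 210 bp. The latter had a Tbx3 region only 40 bp away, at 35016656 to 35016774. In 4 of these 10 pairs the Gata4 region lay wholly inside the Nkx2-5 region, and none had an Nkx2-5 region inside the Gata4 region. Among pairs that the removal takes out, the best mean width ranks were those of chromosomes 17 and 8 described above and of one on chromosome 1, with Gata4 at 137732580 to 137732818 inside Nkx2-5 of 436 bp at 137732576 to 137733011.

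**Figure D5:**
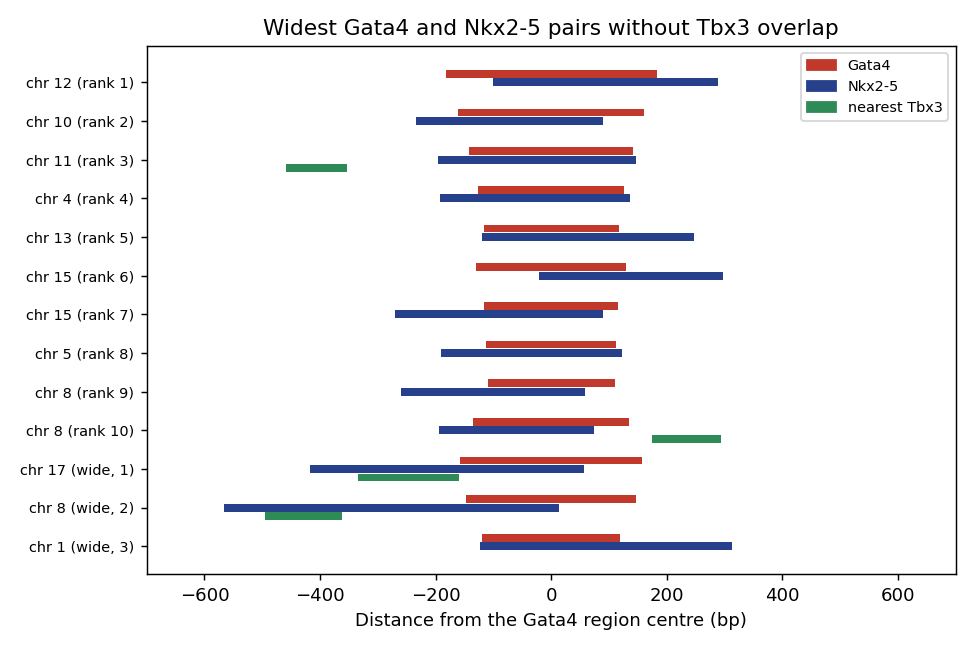
Extent of the Gata4, Nkx2-5 and nearest Tbx3 regions (horizontal axis, bp from the Gata4 centre, 700 bp to each side) at the 10 widest pairs after removal (rank 1 to 10) and the 3 widest others (wide, 1 to 3). The Nkx2-5 bars cross the Gata4 bars in each row, and a Tbx3 region appears in 4 rows, inside the Nkx2-5 region in 2 of them.

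Chromosome starts and very wide regions made up a small part of the set. The removal took out 23 of the 381 regions and left 358, while it took out 5.97% of all Gata4 regions. Only 4 of the 381 began before 3.1 Mb, and 5 had a Gata4 width of 400 bp or more (1.31%, against 1.09% of all Gata4 regions). The median Gata4 width was 161 bp after removal. The regions with the most other Nkx2-5 regions within 50 kb, 9 each, were on chromosome 9 at 3000382 to 3000502, 3002284 to 3002387 and 3032353 to 3032488, all before 3.1 Mb, and each of them had 13 other Gata4 and 9 Tbx3 regions there.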

How the data were processed

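Per the labels, ChIP-seq libraries of adult FVB/N mouse heart were made for 4 targets and 1 control, 5 libraries in all, and the lists of Gata4, Nkx2-5 and Tbx3 were used (6705 Nkx2-5, 13242 Tbx3 and 1756 Gata4 regions). The deposited files hold region positions in bp. Per the submitters' processing notes the build is mm9. The sources used here name no aligner, peak caller, threshold or depth, so list lengths cannot be weighed against depth. Regions were read as BED intervals and kept on chromosomes 1 to 19. Overlaps, gaps, centre distances and neighbour counts were computed in Python 3.11.15 with numpy 2.4.6 and pandas 2.3.3. Shares carry exact Clopper-Pearson 95% intervals and medians exact binomial order-statistic 95% intervals. The classing of regions was tested on simulated data: all 400 regions were recovered in each of 5 runs. No test was made between classes. The members, lists and named sets were chosen with earlier results of these data known. Named regions are the 10 pairs of best mean width rank after removal of chromosome starts and surroundings of regions of 400 bp or more, the 3 best others, the 3 regions at each edge of the rule, and groups of 3 or more; others are named for their values. The planned work on nearby genes, gene parts and motifs was left out, since the tables used are GRCm38.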

Additional observations from a re-analysis of the deposited data

How the results depend on the processing

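The count of 381 regions stayed between 328 and 386 when overlaps had to cover 50% of the shorter region, when centres within 500 bp counted as shared, with regions resized to 500 bp, no Tbx3 region within 1 kb, removal of chromosome starts and surroundings of wide regions, a Tbx3-free Nkx2-5 partner, and counting on the Nkx2-5 list (the last 2 chosen after seeing the data). It was 222 with no Tbx3 region within 10 kb and 183 in the wider 50% of each list, which is 21.0% of that Gata4 list. A similar count need not mean the same regions. Only 330 of the 381 overlapped their partner by at least 50%, while that setting counted 355. The count on the Nkx2-5 list is of Nkx2-5 regions, 374 of 6619. The median distance between centres was 38.5 bp with the 50% overlap, which drops pairs that overlap less and admits regions whose Tbx3 overlap is under 50%. A second Gata4 region was near 36 of the 381 within 2 kb and 139 within 50 kb, and a Tbx3 region near 53 within 1 kb and 255 within 50 kb. For the neighbour counts and chromosome shares, the removal was added after seeing the data: 53 of 358 then had a second Gata4 region and 143 of 358 a Tbx3 region within 10 kb, and the share among Gata4 regions of chromosome 15 was 43.9%. No paired analysis was possible because each factor has 1 library, and for the same reason no replicate could be left out. Gene parts, nearby genes and motifs were not examined, since no mm9 annotation or genome was used here.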
